A study of Glycine max with 12 samples.

Results

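The data described here are the transcript levels of the soybean embryo axis at a pair of late weight stages, taken from desiccating seeds of 200–300 mg and of 300–400 mg fresh weight. They belong to a series of 12 RNA-Seq libraries from seed coats, cotyledons, embryo axes, seedling roots and furled leaves. Each tissue and stage has 1 library, and a further library is of the 25–50 mg seed coat of W55. This line is a black-seeded mutant of Williams with a deletion at the *I* locus of seed colour. Both axis libraries came from the cultivar Williams, whose seed coat is yellow with a black hilum, and neither carried a mutation or received a treatment. Plants were grown in a greenhouse, axes were dissected by hand and freeze-dried, and both libraries were read on the same type of sequencer at the same read length. In the study's list of libraries the 300–400 mg axes stand 1 stage before the 200–300 mg axes, and both are given as yellow and desiccating. A maturing seed loses weight as it dries. There was 1 library per stage, so the spread between replicates is unknown and nothing below was tested across samples. A Glyma model, the annotated gene of the Wm82.a2 soybean assembly, was included where it had at least 1 RPKM (reads scaled by transcript length and by the library's total alignments) in either axis library. This left 23328 of the 56044 models in the table, against 41060 with 1 RPKM in at least 1 of the 12 libraries.

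The embryo axis is the part of the embryo that becomes the root, hypocotyl and shoot of the seedling, while the cotyledons hold most of the reserves. Late in seed filling a legume embryo stops laying down storage protein and oil and becomes able to survive drying. Transcripts known for that phase encode small heat shock proteins, LEA (late embryogenesis abundant) proteins, enzymes of raffinose family sugars and antioxidant enzymes, and abscisic acid with the factors ABI3, ABI5 and FUS3 controls much of the programme in Arabidopsis.

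Of the 23328 models, 21094 had 1 RPKM or more in both libraries, 1002 only in the 200–300 mg axes and 1232 only in the 300–400 mg axes. The model just inside the limit had 1.00028 RPKM in its higher library and the one just outside 0.999803 RPKM. The totals worked out from the values were 97990070 alignments for the 200–300 mg axes and 94422739 for the 300–400 mg axes, within a range of 14725418 to 187479360 over the series. The intervals below are 95% Clopper-Pearson intervals of a ratio from the recovered alignments and cover counting error only. A read could align to several models, so values of near-identical copies are uncertain between them. In tissue libraries, fewer cells of a type and less RNA per cell cannot be told apart.

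The label of the tissue was checked against markers. Matches of the embryo axis regulators *PLT3* and *BBM* were present, with Glyma.17G062600, a *PLT3* match, at 65.7 RPKM in the 200–300 mg and 38.3 RPKM in the 300–400 mg axes. No match of *SHR* or *WOX5* reached 1 RPKM in either library. These markers are a selection from a list of 83 meristem and patterning regulators, of which 31 were measured. The list summed to 223 RPKM in the 200–300 mg and 209 RPKM in the 300–400 mg axes. Outside the axes its sum ran from 46.7 RPKM in 5–6 mg seed coats to 156 RPKM in 5–6 mg cotyledons, so these transcripts were not confined to the axes. Of the 32 models on the list of seed coat flavonoid markers, 3 were measured. The 32 models together summed to 12.1 RPKM in the 200–300 mg axes and 13.9 RPKM in the 300–400 mg axes, against 348 RPKM in the 200–300 mg seed coat. Here and below, a sum of RPKM covers every model of a list or group, those under 1 RPKM included. Models with neither a Pfam domain nor an Arabidopsis match took 19.5% of the summed RPKM in the 200–300 mg axes and 24.4% in the 300–400 mg axes. Most of that share, 16.2% and 20.6%, came from such models on chromosome 13.

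Most transcripts had a similar level at both stages, and those that differed by 2-fold were more often higher in the 200–300 mg axes. The difference is given as log2(RPKM + 0.1) of the 200–300 mg axes minus that of the 300–400 mg axes. By this measure 21547 models (92.4%) lay within 2-fold, 1264 (5.42%) were at least 2-fold higher in the 200–300 mg axes, and 517 (2.22%) were at least 2-fold lower. At 4-fold the counts were 266 higher (1.14%) and 29 lower (0.124%). The median difference over all models was -0.02, with quartiles of -0.30 and 0.31, and Spearman's rho between the 2 libraries over the 23328 models, which share the reference and differ little in depth, was 0.931. The counting interval of the ratio left out 1 for 1262 of the 1264 higher models and for all 517 lower ones. The models were called on this same ratio, so this is no separate check. It shows only that counting error was small beside these differences.

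Higher models made up 71.0% of the 2-fold calls. Rescaling both libraries to a common sum (TPM scaling) raised the values, so 28740 models passed the limit, and gave a share of 63.8% (1772 higher, 1006 lower). The share was 51.8% (1435 higher, 1337 lower, 28135 models) with this rescaling after models lacking both a Pfam domain and an Arabidopsis match were left out. It was 60.1% (1175 higher, 780 lower) when only such models of chromosome 13 were left out and each library kept its summed RPKM. Among the 21094 models at 1 RPKM or more in both libraries, 814 were higher and 251 lower. At least 5 RPKM in either library was reached by 11482 models, of which 652 were higher and 131 lower, so the lower calls lay more often at low levels.

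**Figure D1:**
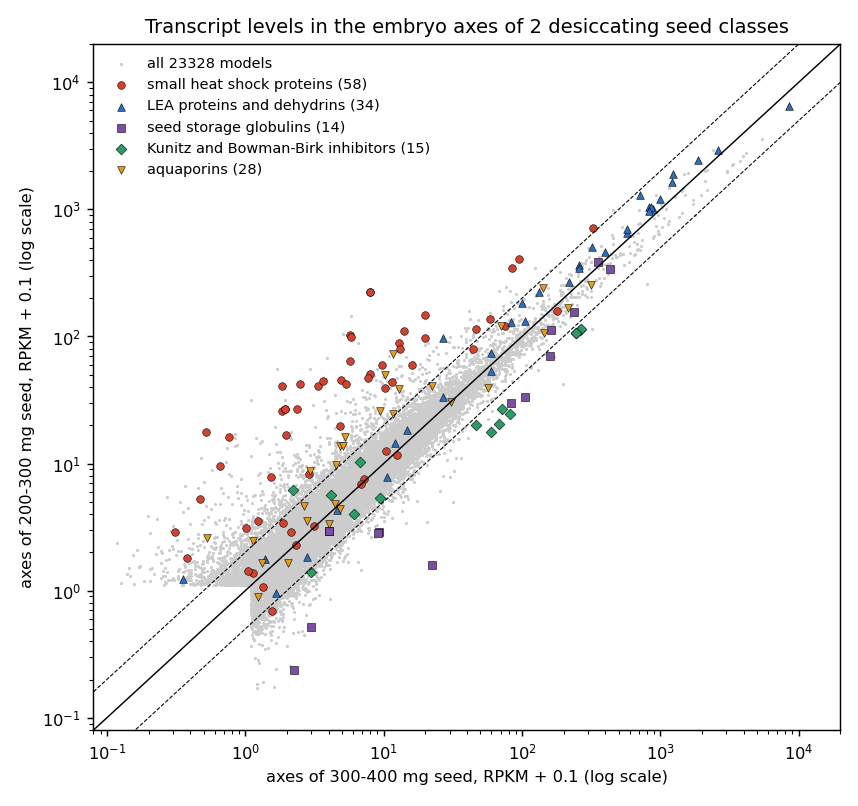
Levels of the 23328 models in the 300–400 mg axes (x axis) and the 200–300 mg axes (y axis), both as RPKM + 0.1 on log axes, with 5 gene lists in colour, a solid line of equal levels and dashed lines at 2-fold. The small heat shock proteins lie mostly above the upper dashed line, most LEA models lie between the dashed lines at the highest levels, and most Kunitz and Bowman-Birk inhibitors lie below the lower line.

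The small heat shock proteins, chaperones that bind unfolding proteins and are known from both heat stress and maturing seeds, were the list with the largest median difference. Of 84 models with the HSP20 domain 58 were measured; 43 of the 58 were at least 2-fold higher in the 200–300 mg axes, 34 of them by 4-fold, and 1 was lower. Their median difference was 2.32 beside -0.02 over all models, of which 5.42% were higher and 2.22% lower. With 1 RPKM required in both libraries 48 models were left, 36 of them higher and none lower, and the median was again 2.32. The median level of the 58 models was 5.05 RPKM in the 300–400 mg axes and 39.9 RPKM in the 200–300 mg axes. Only 2 models reached 100 RPKM in the former, and 12 did in the latter.

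Higher models were found in several cellular classes of the family. The cytosolic class I matches of AT1G07400 summed to 108.7 RPKM in the 300–400 mg and 653 RPKM in the 200–300 mg axes, and 11 of the 13 models were higher. The 9 models matching HSP22.0, an endoplasmic reticulum protein, were all higher and summed to 38.99 RPKM in the 300–400 mg and 259 RPKM in the 200–300 mg axes. The 5 measured models matching HSP17.6II, of cytosolic class II, were also all higher, with sums over the group of 25.9 and 158 RPKM. Of the 6 matches of the chloroplast protein HSP21, 5 were higher, and the single match of mitochondrial HSP23.6, Glyma.12G013100, stood at 19.96 RPKM in the 300–400 mg and 147 RPKM in the 200–300 mg axes. The 4 models that carry an ARID DNA-binding domain beside HSP20 and are not heat shock proteins were level, with sums of 19.2 and 19.5 RPKM.

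**Figure D2:**
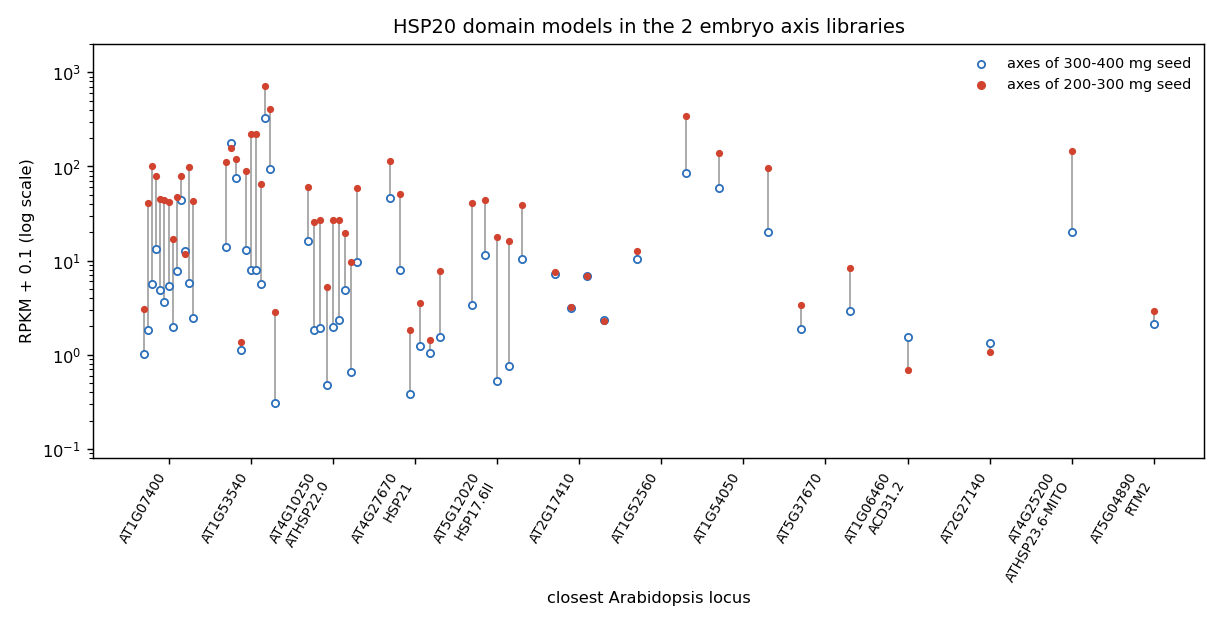
RPKM on a log axis of each of the 58 measured models with an HSP20 domain in the 300–400 mg axes (open blue) and the 200–300 mg axes (red), joined by a line and grouped by closest Arabidopsis locus. In 43 of the 58 models the red point lies at least 2-fold above the blue one, and the median level moves from 5.05 to 39.9 RPKM.

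The most abundant of these models, Glyma.14G063700, had 324 RPKM in the 300–400 mg and 707 RPKM in the 200–300 mg axes, a ratio of 2.18 (2.14 to 2.21). Its neighbour in number, Glyma.14G063800, had 94.5 and 410 RPKM, a ratio of 4.34 (4.24 to 4.44). Among the late seed libraries Glyma.14G063700 was mainly an embryo transcript, at 362 RPKM in the 200–300 mg cotyledons and 404 RPKM in dry cotyledons but 9.01 and 12.2 RPKM in the matching seed coats. With the pseudocount of 0.1 the largest difference of all models at 5 RPKM or more belonged to Glyma.14G099900, an HSP17.6II match, at 0.423 RPKM (39 alignments) in the 300–400 mg and 17.5 RPKM (1675 alignments) in the 200–300 mg axes, 41.4-fold (30.1 to 58.4). Its log2 difference of 5.07 became 3.70 with a pseudocount of 1, so its size and rank rest on the low level in the 300–400 mg axes. The class I pair Glyma.13G176200 and Glyma.13G175700, whose values differed by little in every library, stood at 7.81 and 7.90 RPKM in the 300–400 mg axes and both at 223 RPKM in the 200–300 mg axes, with ratios of 28.6 and 28.2. Reads of this pair may be shared, so the pair counts as 1 observation.

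Of 267 measured models of other chaperones 24 were higher and 1 lower, beside 5.42% and 2.22% of all models, with a median difference of 0.04. Among the largest ratios were those of cytosolic HSP90.1, where Glyma.09G131500 had 5.73 RPKM in the 300–400 mg and 145 RPKM in the 200–300 mg axes, 25.4-fold (24.0 to 26.8), and Glyma.16G178800 had 6.38 and 88.6 RPKM, 13.9-fold. Of the 28 HSP70 models 7 were higher (1290 and 2083 RPKM in sum), whereas none of the 45 chaperonin models was. Glyma.18G285100, a match of the cochaperone BAG5, had 0.743 and 17.1 RPKM, 23.0-fold. In dry cotyledons these models stood at 147, 95.6 and 21.9 RPKM, above their 54.9, 39.7 and 6.07 RPKM in the 200–300 mg cotyledons.

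Heat shock factors are the activators and repressors of these chaperone genes. They were higher in 10 of 34 models and lower in none, beside 5.42% and 2.22% of all models. Their median was 0.45. All 4 matches of *HSFB2A* were higher, among them Glyma.20G156800 with 48.1 RPKM in the 300–400 mg and 134 RPKM in the 200–300 mg axes. None of the 4 matches of *HSFA2*, a main heat stress activator in Arabidopsis, differed by 2-fold, and Glyma.17G053700 of that group had 154 and 151 RPKM. A difference between these groups could not be tested with 1 library per stage.

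Models of sugar synthesis and LEA proteins differed less, and of all models 5.42% were at least 2-fold higher. Raffinose family oligosaccharides accumulate in drying seeds. All 13 measured models of their synthesis had a positive difference, beside 11211 of all 23328 models. Of the 13, 4 were past 2-fold, and the median was 0.66. Glyma.03G137900, which the table pairs with a raffinose synthase of Arabidopsis, had 456 RPKM in the 300–400 mg and 986 RPKM in the 200–300 mg axes, a ratio of 2.17 (2.15 to 2.18). Glyma.10G145300, a match of galactinol synthase 1, which makes the galactosyl donor, had 123 and 348 RPKM, 2.83-fold. None of the 8 alpha-galactosidases, which break these sugars down, differed by 2-fold.

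LEA proteins, hydrophilic proteins held to protect membranes and enzymes in the dry state, were among the highest transcripts of both libraries. Of 41 models 34 were measured, and the list made up 6.39% of the summed RPKM in the 300–400 mg axes and 7.13% in the 200–300 mg axes. Of these 2 were higher and none lower, beside 5.42% and 2.22% of all models. A positive difference was found in 28 of 34, beside 11211 of all 23328 models, with a median of 0.31. Glyma.17G027400, a match of the drought-induced LEA protein DI21, was the most abundant annotated model and was lower in value at the lighter stage, with 8440 RPKM in the 300–400 mg and 6445 RPKM in the 200–300 mg axes (1.31-fold). Glyma.03G056000, an EM6 match, had 2603 and 2918 RPKM, and Glyma.03G144400, a LEA4-5 match, 1857 and 2449 RPKM. At lower levels the dehydrin Glyma.04G009400, a match of *COR47*, was higher, with 27.0 and 97.5 RPKM (3.62-fold, 3.47 to 3.77). The LEA sums of 23686 RPKM in the 300–400 mg and 26204 RPKM in the 200–300 mg axes were thus closer to each other than those of the small heat shock proteins, at 1177 and 4136 RPKM.

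**Figure D3:**
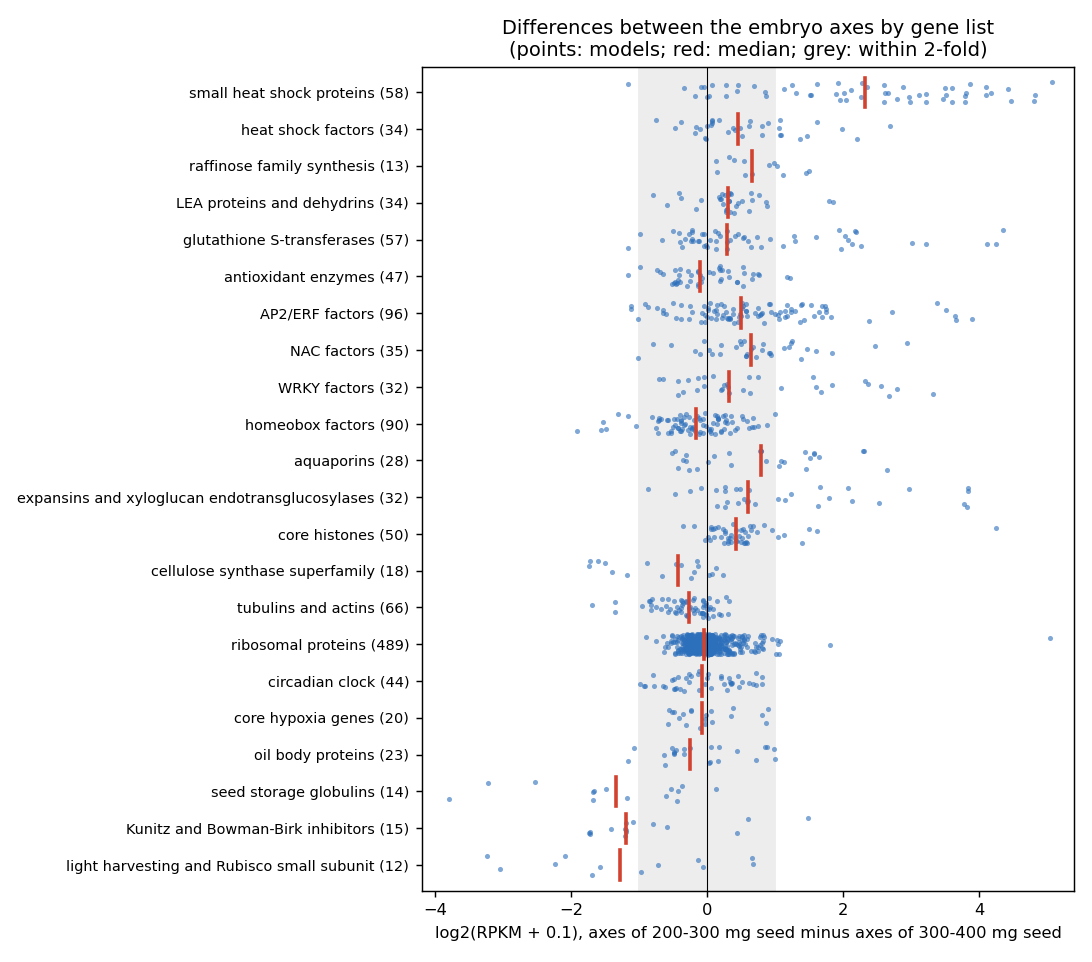
Difference in log2(RPKM + 0.1), 200–300 mg minus 300–400 mg axes, of each model (points) in 22 gene lists, with the median of each list as a red bar and the range within 2-fold in grey. The median of the small heat shock proteins is 2.32, and the medians of the storage globulins and of the Kunitz and Bowman-Birk inhibitors are -1.34 and -1.20.

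Enzymes against oxidation and foreign compounds divided by family. Glutathione S-transferases, which join glutathione to reactive molecules, were higher in 17 of 57 models and lower in 1, with a median of 0.29. The shares over all models were 5.42% and 2.22%. All 10 measured models of a tau class run on chromosome 7, numbered from Glyma.07G139600 to Glyma.07G140700, were higher, by 2.07 to 4.35 on the log2 scale; this run was singled out after its values were seen, and its copies may share reads. Glyma.07G139700 of that run, a GSTU8 match, had 5.01 RPKM in the 300–400 mg and 104.2 RPKM in the 200–300 mg axes, 20.8-fold (18.9 to 22.9). The 47 antioxidant models had 2 higher and 1 lower with a median of -0.10. The 2 higher models were the catalases Glyma.06G017900 with 83.1 and 187 RPKM and Glyma.04G017500 with 60.7 and 142 RPKM, while the peroxiredoxin Glyma.08G088000, a match of *PER1*, had 204 and 126 RPKM.

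Storage globulins, the 7S and 11S proteins that feed the seedling, were measured in 14 of 22 models. Of these, 8 were lower and none higher in the 200–300 mg axes, beside 2.22% lower over all models, with a median of -1.34, and with 1 RPKM required in both libraries 6 of 12 were lower with a median of -0.89. Their sum was 1592 RPKM in the 300–400 mg and 1139 RPKM in the 200–300 mg axes, beside 4034 RPKM in the 200–300 mg cotyledons. These globulins also mark cotyledon tissue, whose part in the result was not tested. The 2 highest globulins differed least: Glyma.10G246500, a match of *PAP85*, had 436 and 337 RPKM, and Glyma.U020300 had 353 and 386 RPKM. The 11S globulin Glyma.10G037100, a match of *CRA1*, differed most, with 22.1 RPKM in the 300–400 mg and 1.50 RPKM in the 200–300 mg axes, 14.8-fold lower (13.1 to 16.8), while cotyledons held it at 235 RPKM at 200–300 mg and 246 RPKM when dry.

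Of 15 measured Kunitz and Bowman-Birk models 10 were lower and 1 higher, beside 2.22% and 5.42% of all models. Their median was -1.20, and every one of the 15 had 1 RPKM in both libraries. The Bowman-Birk models, small inhibitors of trypsin and chymotrypsin, summed to 1314 RPKM in the 300–400 mg and 540 RPKM in the 200–300 mg axes, and 8 of the 10 measured were lower. Glyma.09G158700 had 267 and 115 RPKM and Glyma.09G158600 had 261 and 113 RPKM, and these near copies may share reads. Unlike the globulins, Glyma.09G158700 was lower in cotyledons than in either axis library, at 53.8 RPKM at 200–300 mg and 42.7 RPKM when dry.

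Other small seed proteins were also lower in single members, where 2.22% of all models were lower. Among the lipid transfer and 2S albumin-like proteins 2 of 24 were lower, namely Glyma.12G213600 with 801 RPKM in the 300–400 mg and 256 RPKM in the 200–300 mg axes (3.13-fold, 3.07 to 3.18) and Glyma.13G288100 with 197 and 42.0 RPKM (4.70-fold). The albumin I models Glyma.13G194400 and Glyma.13G194300, from a family of legume cysteine-rich peptides, had 31.6 and 4.88 RPKM and 20.5 and 3.37 RPKM. Seed lipoxygenases, which oxidise polyunsaturated fatty acids, had 2 lower of 9, and the most abundant, Glyma.15G026300, lay just inside the 2-fold limit at 1790 and 900 RPKM (1.99-fold). In the cotyledons the same model had 2733 RPKM at 200–300 mg and 1315 RPKM when dry.

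Genes of the oil store were closer to level, and of all models 5.42% were higher and 2.22% lower. Oil body proteins summed to 3241 RPKM in the 300–400 mg and 3151 RPKM in the 200–300 mg axes, with 2 of 23 lower and a median of -0.25. Oil synthesis had 1 higher and 2 lower of 40, and the 2 lower models, Glyma.20G111000 with 45.1 and 19.3 RPKM and Glyma.10G278000 with 10.5 and 3.95 RPKM, both matched *FAD2*, the oleate desaturase. Oil breakdown had none higher and 4 lower of 35, with a median of 0.23. With 1 RPKM required in both libraries 2 of 31 were lower, and with a pseudocount of 1 none was.

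**Figure D4:**
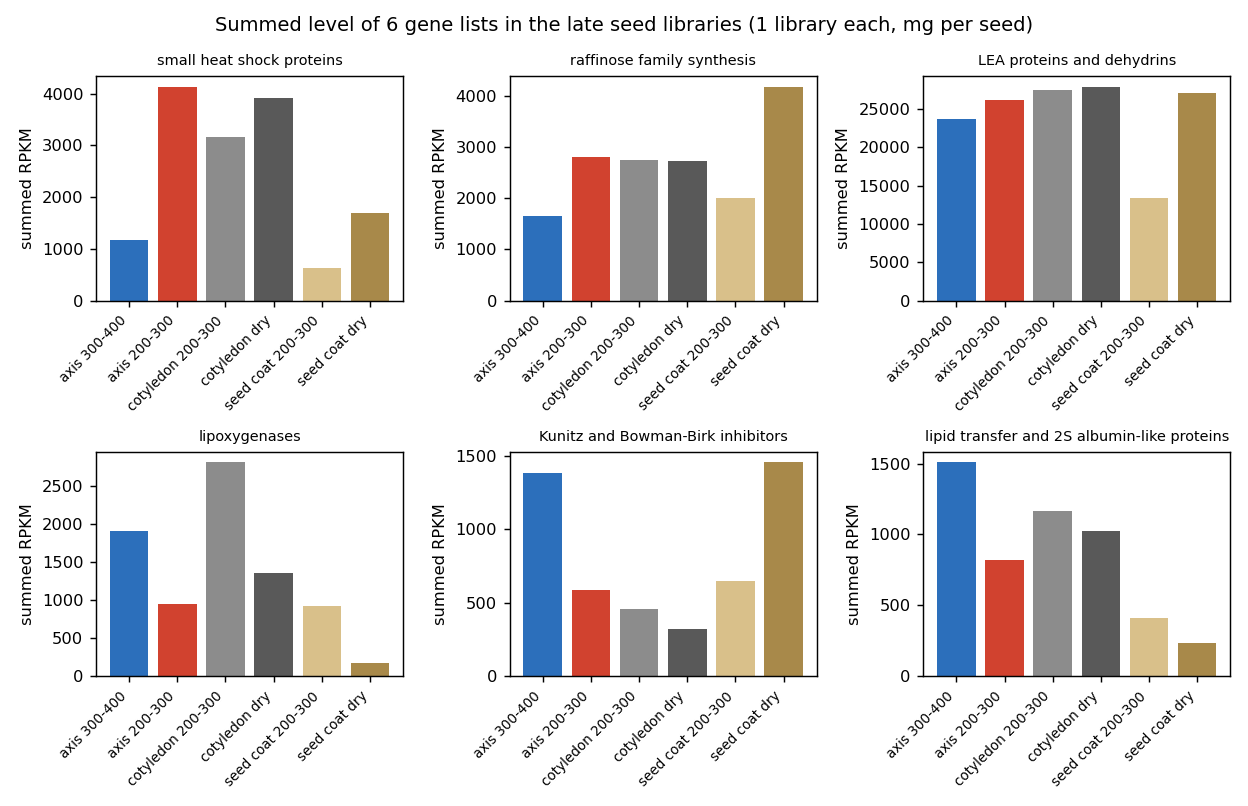
Summed RPKM of 6 gene lists in 6 late seed libraries, namely axes at 300–400 and 200–300 mg, cotyledons at 200–300 mg and dry, and seed coats at 200–300 mg and dry, with 1 library per bar. The small heat shock proteins sum to 1177 RPKM in the 300–400 mg axes, 4136 RPKM in the 200–300 mg axes and 3918 RPKM in dry cotyledons.

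The master regulators of seed maturation differed little apart from *FUS3*. Of 32 measured seed regulators 1 was higher and 2 lower, beside 5.42% and 2.22% of all models, with a median of 0.03. The 2 lower models were both matches of *FUS3*, an activator of storage genes: Glyma.19G100900 had 1.12 RPKM in the 300–400 mg and 0.071 RPKM in the 200–300 mg axes (15.8-fold lower, 8.84 to 31.2), and Glyma.16G050300 had 1.23 and 0.0915 RPKM (13.5-fold, 7.98 to 24.6). Both were measured only through the 300–400 mg axes, which had to be the higher library. The *ABI3* matches Glyma.18G176100 and Glyma.08G357600 had 41.4 and 59.2 RPKM and 30.9 and 37.1 RPKM. The *ABI5* match Glyma.10G071700 had 32.9 and 36.2 RPKM. The 1 higher model, the *ABI4* match Glyma.02G264700, had 2.84 and 6.38 RPKM, and *SOM*, a repressor of light-dependent germination, had 137 and 174 RPKM in its highest match, Glyma.12G205700.

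Hormone genes differed in single members. None of the 9 measured models of abscisic acid synthesis and breakdown differed by 2-fold (median 0.33), and 2 of 39 of its signalling models were higher (median 0.29). Gibberellin genes had 1 lower of 21, and auxin genes 6 higher and 4 lower of 78, beside 5.42% higher and 2.22% lower over all models. In ethylene synthesis the pair of *ACO1* matches was higher: Glyma.08G029200 had 14.3 RPKM in the 300–400 mg and 69.2 RPKM in the 200–300 mg axes (4.84-fold, 4.59 to 5.12), and Glyma.05G222400 had 5.14 and 25.0 RPKM. The former was nearly absent from the 200–300 mg cotyledons (0.178 RPKM) and stood at 15.7 RPKM in dry cotyledons.

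Transcription factors of stress families were more often higher than all models were (5.42%). AP2/ERF factors had 30 higher and 3 lower of 96, with a median of 0.50, and 21 higher and 2 lower of the 82 at 1 RPKM in both libraries. The *DREB2C* match Glyma.02G261700, a drought and heat regulator in Arabidopsis, had 46.04 RPKM in the 300–400 mg and 118 RPKM in the 200–300 mg axes. NAC factors had 10 higher and 1 lower of 35, and 6 higher and 1 lower of the 30 at 1 RPKM in both libraries. The *ATAF1* match Glyma.13G030900 had 73.2 and 173 RPKM. WRKY factors had 11 higher of 32 and none lower, and all 4 matches of *WRKY33* and all 4 of *WRKY6* were among them, although at modest levels, with the *WRKY33* match Glyma.14G200200 at 1.67 and 12.2 RPKM. With 1 RPKM required in both, 5 of 23 WRKY models were higher.

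The homeobox family had none higher and 7 lower of 90, beside 5.42% and 2.22% of all models, and 2 of 73 were lower with 1 RPKM in both libraries. MYB factors had 15 higher and none lower of 142, and GRAS factors 6 higher and none lower of 42. The bHLH family had 4 higher and 6 lower of 75. With 1 RPKM in both libraries, 11 of 129 MYB and 4 of 34 GRAS models were higher and none lower. By the same limit 3 bHLH models were higher and 4 lower of 68. Differences between families were not tested.

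Water channels of 3 membranes were among the higher models, and most matched the PIP group of the plasma membrane. Of 88 aquaporin models 28 were measured, 12 of them higher and none lower, beside 5.42% and 2.22% of all models. Their median was 0.79, and 11 of 26 were higher with 1 RPKM in both libraries. Of the 12 higher models 9 matched PIP genes, and the other 3 matched the tonoplast channels TIP1;1 and TIP2;3 and SIP2;1 of the endoplasmic reticulum. Glyma.20G179700, a match of PIP2;5, had 11.6 RPKM in the 300–400 mg and 72.7 RPKM in the 200–300 mg axes, 6.27-fold, beside 359 RPKM in seedling root. Of the 7 matches of PIP2;2, 6 were higher, with sums of 49.2 and 154 RPKM. The 4 matches of TIP3;1, the tonoplast channel of protein storage vacuoles, had none past 2-fold and sums of 732 and 566 RPKM, and Glyma.09G160500 among them had 315 and 253 RPKM.

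Growth genes gave a mixed picture at low levels, where 5.42% of all models were higher and 2.22% lower. Of 32 expansins and xyloglucan endotransglucosylases, which loosen cell walls, 14 were higher, but only 1 of the 19 with 1 RPKM in both libraries was. The *XTH23* matches led, with Glyma.17G065300 at 0.625 RPKM in the 300–400 mg and 10.2 RPKM in the 200–300 mg axes and Glyma.17G065200 at 0.403 and 7.09 RPKM. Cellulose synthases had 6 lower of 18 and none higher (median -0.43), and 2 lower of 12 (median -0.22) with 1 RPKM in both libraries. The *CESA3* match Glyma.12G237000 had 14.6 and 5.49 RPKM. Tubulins and actins had 3 lower of 66, among them the beta-tubulin Glyma.19G127700 with 36.0 and 11.0 RPKM (3.27-fold). None of the 10 D-type cyclins differed by 2-fold, and their median was -0.44.

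Core histones had 6 higher of 50 and none lower, beside 5.42% and 2.22% of all models. Of the 50 differences 47 were above 0, beside 11211 of all 23328 models, with a median of 0.42. Glyma.08G227400 had 0.740 RPKM in the 300–400 mg and 15.8 RPKM in the 200–300 mg axes (21.3-fold, 16.9 to 27.2). Of 489 ribosomal protein models 7 were higher and none lower (median -0.04), and 1 of these, Glyma.18G050600, a match of *RPL10B*, had the second largest ratio among models of 5 RPKM or more, with 1.59 and 55.5 RPKM (34.8-fold, 30.7 to 39.6). It had 38.1 RPKM in the 200–300 mg cotyledons and 103 RPKM in dry cotyledons.

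Clock, oxygen and chlorophyll breakdown genes were close to level, and light harvesting models differed at low levels. Light harvesting and Rubisco small subunit models were measured in 12 of 53 cases. Of these 6 were lower and none higher, beside 2.22% and 5.42% of all models, with a median of -1.28. None of the 6 with 1 RPKM in both libraries was lower, and the median of those 6 was -0.10. The sums over the list were 60.2 and 45.2 RPKM beside 29049 RPKM in furled leaves. None of the 44 clock genes, 20 core hypoxia genes or 11 genes of chlorophyll breakdown differed by 2-fold. The clock genes summed to 409 RPKM in the 300–400 mg and 408 RPKM in the 200–300 mg axes.

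Among the largest differences were models outside these lists. Higher in the 200–300 mg axes were Glyma.06G135900, which has no Arabidopsis match, with 0.994 and 31.4 RPKM, and Glyma.01G165600, a thaumatin family protein, with 0.381 and 10.9 RPKM. Lower were the cystatin Glyma.11G253300, an inhibitor of cysteine proteases, with 25.6 and 6.00 RPKM, and the peroxidase Glyma.07G260300 with 30.3 and 7.79 RPKM. The last of these is a strong seed coat transcript, at 357 RPKM in the 200–300 mg seed coat, and the part of seed coat tissue in its difference was not tested. Glyma.08G342400, also without a match, had 14.5 RPKM in the 300–400 mg and 3.28 RPKM in the 200–300 mg axes and no more than 1.87 RPKM in any library outside the axis.

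Levels in the 200–300 mg axes were closer in rank order to the other late seed libraries than those in the 300–400 mg axes were. Over the 23328 models Spearman's rho with dry cotyledons was 0.876 for the 200–300 mg and 0.761 for the 300–400 mg axes. With the 200–300 mg cotyledons it was 0.890 and 0.836, and with dry seed coats 0.805 and 0.683. With the 5-day-old root it was 0.460 and 0.440, whereas the 5 libraries of furled leaves and young seeds, W55 included, were closer to the 300–400 mg axes. Examples were furled leaves with 0.396 and 0.436 and 5–6 mg cotyledons with 0.385 and 0.432. These values describe single libraries whose models share lengths and a reference.

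The models that differed between the axes were also compared between cotyledon stages, in libraries that the axis comparison did not use. From 200–300 mg to dry cotyledons, 20636 of the 23328 models were measured, with a median difference of -0.06. Of these, 45.6% were higher in value, 4.51% were 2-fold higher and 9.68% 2-fold lower in the dry cotyledons. Of the 1264 models higher in the 200–300 mg axes 1162 were measured there; their median was 0.76 (quartiles 0.28 and 1.16), 82.9% were higher in value and 33.3% were 2-fold higher in dry cotyledons. Of the 517 lower models only 247 were measured there, with a median of -1.08, and 54.7% were 2-fold lower. Over every model measured in the cotyledons, 22112 in number, 5.49% were 2-fold higher and 10.4% 2-fold lower.

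The same classes were compared between seed coat stages. From 200–300 mg to dry seed coats all measured models had a median of -0.75, the models higher in the axes 0.22 and the lower ones -2.69. Of the 1145 measured models higher in the axes 24.8% were 2-fold higher and 23.9% 2-fold lower in the dry seed coat, and the quartiles were -0.94 and 0.99. Of the 517 models 2-fold lower in the axes 298 were measured in the seed coats, and 88.3% of these were also 2-fold lower when dry. Of the 23328 models of the axis comparison 20764 were measured there, 40.9% of them 2-fold lower and 3.25% 2-fold higher. Over every model measured in the seed coats, 26156 in number, 49.1% were 2-fold lower and 3.71% 2-fold higher. Unannotated chromosome 13 models held 47.6% of all RPKM in dry seed coats, beside 7.86% in seed coats at 200–300 mg. For cotyledons the shares were 19.9% when dry and 7.90% at 200–300 mg. The part of these models in the differences between stages was not tested. The 29 models at least 4-fold lower in the axes were an exception in the cotyledons, where the 14 measured had a median of 0.07.

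**Figure D5:**
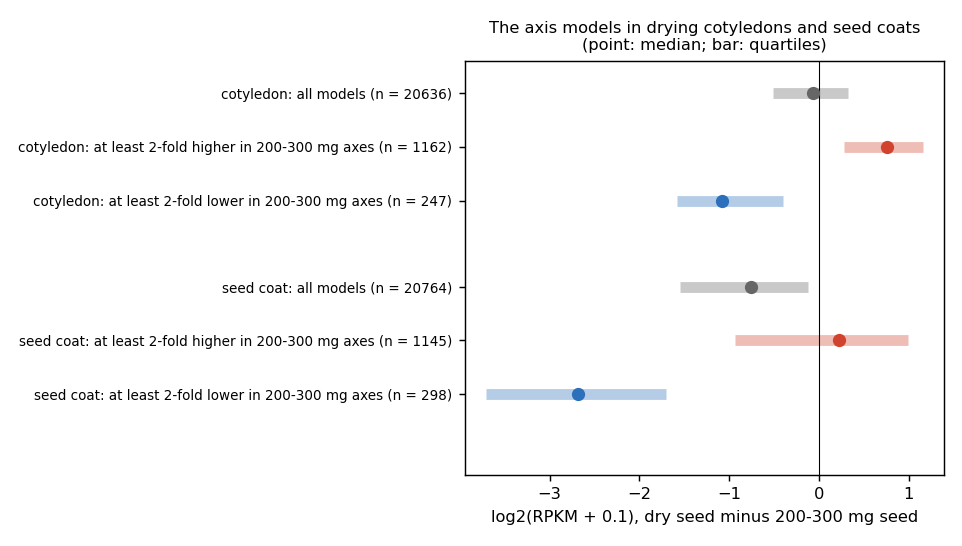
Median (points) and quartiles (bars) of the difference in log2(RPKM + 0.1), dry minus 200–300 mg, in cotyledons and in seed coats, for all models and for those at least 2-fold higher or lower in the 200–300 mg axes. In cotyledons the median is 0.76 for the models 2-fold higher and -1.08 for those 2-fold lower, beside -0.06 for all models.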

How the data were processed

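The 12 soybean RNA-Seq libraries were made from total RNA. The authors aligned reads with Bowtie to the transcripts of all Glyma models of Wm82.a2, allowing mismatches and several alignments per read, and deposited RPKM values of the first splice variant, which are scaled by transcript length and by total alignments. Reads in several models count in each, and abundant transcripts lower the scaled level of all others.

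From these values log2(RPKM + 0.1) differences of the 200–300 mg minus the 300–400 mg axes were computed over models with at least 1 RPKM in either, and called at 2-fold and 4-fold. Library totals and alignments per model were recovered from the decimals of the RPKM values (tolerance 0.001) and gave exact 95% intervals. Closest Arabidopsis loci and Pfam domains in the table assigned models to 53 lists. Members and lists were chosen with earlier results of these data known. The text names a selection of the 10 largest rises and falls at 5 RPKM or more, the 10 highest models, the 3 highest and the 3 most different members of each list and all seed regulators; other names were chosen after their values were seen. Alternatives changed the pseudocount, minimum level, fold, scaling and unannotated models. Python 3.11.15, numpy 2.4.6, pandas 2.3.3, scipy 1.17.1 and matplotlib 3.10.9 were used, and the scripts were tested on simulated data.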

Additional observations from a re-analysis of the deposited data

How the results depend on the processing

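The counts of models at least 2-fold higher and lower in the 200–300 mg axes were 695 and 122 with a pseudocount of 1, 1925 and 1086 with no minimum level, 652 and 131 with a minimum of 5 RPKM, 266 and 29 at 4-fold and 3056 and 2226 at 1.5-fold. With 1 RPKM required in both libraries, an alternative added after seeing the data, they were 814 and 251. The lower count alone moved to 1006 with TPM scaling, and to 1337 with TPM scaling without models lacking a Pfam domain and an Arabidopsis match. It moved to 780 without unannotated chromosome 13 models (added after seeing the data). Both counts stayed within 1.5 times with a pseudocount of 0.01 (1336 and 616) and median-ratio scaling (1213 and 563). The counting interval left 1262 and 517, which is no separate check, since the calls used the same ratio. The 10 largest rises and 10 largest falls kept their direction under these settings. This is no check on them, since they were picked for their size. A change of pseudocount, minimum level or fold cannot turn a direction. No scaling moved the median of all models by more than 0.1. Of the 10 lists with a median of at least 0.5 in size, 8 kept its sign in all settings, and the expansins and NAC factors came to -0.01 and -0.00 with no minimum level. The medians of storage globulins, Kunitz and Bowman-Birk inhibitors and light harvesting models, -1.34, -1.20 and -1.28, came as near 0 as -0.60 and -0.22 (both with no minimum level) and -0.07 (minimum of 5 RPKM, 3 models). The chaperone median of 0.04 came to -0.02 and -0.04 without the unannotated models. No paired analysis was possible because each group has 1 library, and for the same reason no replicate could be left out.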
